A study of Mus musculus with 8 samples.

Results

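Signals of 8 cytokine genes were described in the intestine and in intestinal tumours of mice: Il1b, Il1rn, Il23a, Tnf, Il11, Il33, Il18 and Tgfb1. The genes were taken as every probe set that the platform annotation assigned to exactly 1 of them, which gave 11 probe sets for the 8 genes, of 34945 probe sets assigned to 18193 single genes on the array. Il1rn had 3 probe sets, Tgfb1 had 2 and each of the other genes had 1. All 8 genes were tested, among 14027 genes whose signal exceeded a floor of 64.1 in at least 2 of 8 arrays. Il11 passed that filter through 2 arrays, and Il23a and Tnf through 3 arrays each. For these a count of calls over the members is a description and no support.

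The study measured gene expression on 8 Affymetrix arrays of C57BL/6 mice aged 110 days, 1 array per group. In colon the groups were WT tissue, ACKR2KO tissue, ApcMin tumours and ACKR2KO_ApcMin tumours, and the same 4 groups were measured in small intestine, which the labels of the tumours give as ileum. ApcMin/+ mice are heterozygous in the germ line for a mutation of Apc, a brake on Wnt signalling, and form intestinal tumours spontaneously. ACKR2 (D6) is a scavenger receptor that takes up inflammatory CC chemokines without signalling. The non-tumour tissue came from mice without the ApcMin allele, so tumours were set against the tissue of other mice and never against neighbouring tissue of the same animal. RNA was pooled within a genotype, with the number of animals not given, and the tissue layers that the non-tumour samples held are not stated.

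Interleukin 1 beta, made by activated myeloid cells, signals through the IL1 receptor, and the product of Il1rn occupies the same receptor without signalling. Il23a encodes the p19 subunit of IL23, which sustains IL17-producing lymphocytes, and Tnf encodes the cytokine TNF, which activates NF-kB in epithelial and stromal cells. IL11 is a member of the IL6 family that signals through gp130 to STAT3, while IL33 and IL18 are IL1 family cytokines that epithelial and stromal cells can hold ready, and TGF-beta 1 restrains epithelial growth and immune cells. These cytokines are known for promoting or limiting tumour growth in the gut.

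The promoters of 3 members whose signal rose in colon tumours are shown because these genes moved together. They are the 250 bases before an annotated start, from RefSeq in build GRCm38.p6, on the minus strand, and capitals mark a matched motif.
Il1b, chr2:129371140-129371389: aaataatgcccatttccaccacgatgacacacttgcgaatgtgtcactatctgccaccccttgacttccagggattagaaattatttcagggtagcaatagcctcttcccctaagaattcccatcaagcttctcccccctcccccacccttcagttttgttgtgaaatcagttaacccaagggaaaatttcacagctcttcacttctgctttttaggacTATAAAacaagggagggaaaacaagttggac
Tnf, chr17:35202008-35202257: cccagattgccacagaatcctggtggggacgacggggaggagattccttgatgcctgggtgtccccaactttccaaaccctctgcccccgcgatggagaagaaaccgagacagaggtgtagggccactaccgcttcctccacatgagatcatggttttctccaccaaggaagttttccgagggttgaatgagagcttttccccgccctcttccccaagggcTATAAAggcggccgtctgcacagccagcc
Il11, chr7:4778142-4778391, at the second of its annotated starts: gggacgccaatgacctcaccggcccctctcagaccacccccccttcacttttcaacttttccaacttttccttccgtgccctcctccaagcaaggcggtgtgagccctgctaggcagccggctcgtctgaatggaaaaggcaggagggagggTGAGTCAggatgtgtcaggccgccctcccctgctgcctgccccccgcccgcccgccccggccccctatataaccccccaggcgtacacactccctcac
The Il1b window held a TATA box (TATAAA) with its first base 31 bases before the start, and the Tnf window held one 29 bases before the start. The Il11 window held an AP-1 motif (TGANTCA) 98 bases before the start. Both strands were searched, also for a STAT motif (TTCNNNGAA) and for an NF-kB motif, and none of the 4 motifs overlapped another in these windows. Of 32851 promoter windows of this length, 12.4% held the TATA box, 6.75% the AP-1 motif, 7.02% the STAT motif and 7.25% the NF-kB motif. A promoter was matched for 7 of the 8 members, in 11 windows. Elsewhere a TATA box lay 203 and 29 bases before the 2 starts of Il33, and one on the opposite strand (TTTATA) 175 before that of Il18. An AP-1 motif lay 141 bases before a start of Il1rn, and an NF-kB motif 140 bases before that of Tgfb1. The window at the first start of Il11 held none of the 4 motifs. A match describes letters and is no evidence of binding.

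Several features of the arrays moved with the groups. The inactive X chromosome's RNA, Xist, reached 9809 and 7807 in the arrays of WT mice and 77.9 and 127 in the ACKR2KO_ApcMin arrays, with the other 4 arrays between. The Y-linked Eif2s3y was under 3 in both WT arrays and between 888 and 1501 in the others, so the sex of the pools moved with the groups and its part in the results was not tested. The median signal was 85.5 to 103.1 in the 4 arrays with ACKR2 loss and 115.5 to 133.1 in the other 4. The Actb 3'/5' ratio, a measure of RNA integrity, was 1.283 to 1.389 with ACKR2 loss and 1.133 to 1.167 without it. A second such measure, the Gapdh 3'/5' ratio, overlapped, at 0.740 to 0.866 with ACKR2 loss and 0.772 to 0.952 without it. Tissue markers moved too: all 9 measured smooth muscle genes fell in colon tumours, and their summed signal was 103684 to 122974 in non-tumour colon and 8428 to 32696 in colon tumours. In these bulk samples fewer cells of a type and less RNA per cell cannot be told apart.

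Signals are linear array intensities, and differences are on the log2 scale after values below the floor were set to it, so a difference from a floored value is a lower limit. A gene was called where the limma adjusted p (Benjamini-Hochberg over all 14027 genes) was under 0.05. With 1 array per group no group has a spread of its own, and the standard errors, written after ±, rest on the disagreement of the ACKR2 effect between colon and small intestine, not on animals. For the same reason neighbours in an order of signals are not separated by any test. For Il23a, Tnf and Il11 all non-tumour values were set to the floor and agreed by construction, so their ± and adjusted p are partly set by it. Of the 16 calls on members over all comparisons, 15 were lost when genes were not filtered for low signal. With any 1 array left out, no call on a member held, since 1 residual degree of freedom remained. Each of the 16 kept its direction, but that is no support. For the called tumour effects and tissue comparisons both pairs of arrays already had the same sign, so the direction was largely fixed in advance.

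**Figure D1:**
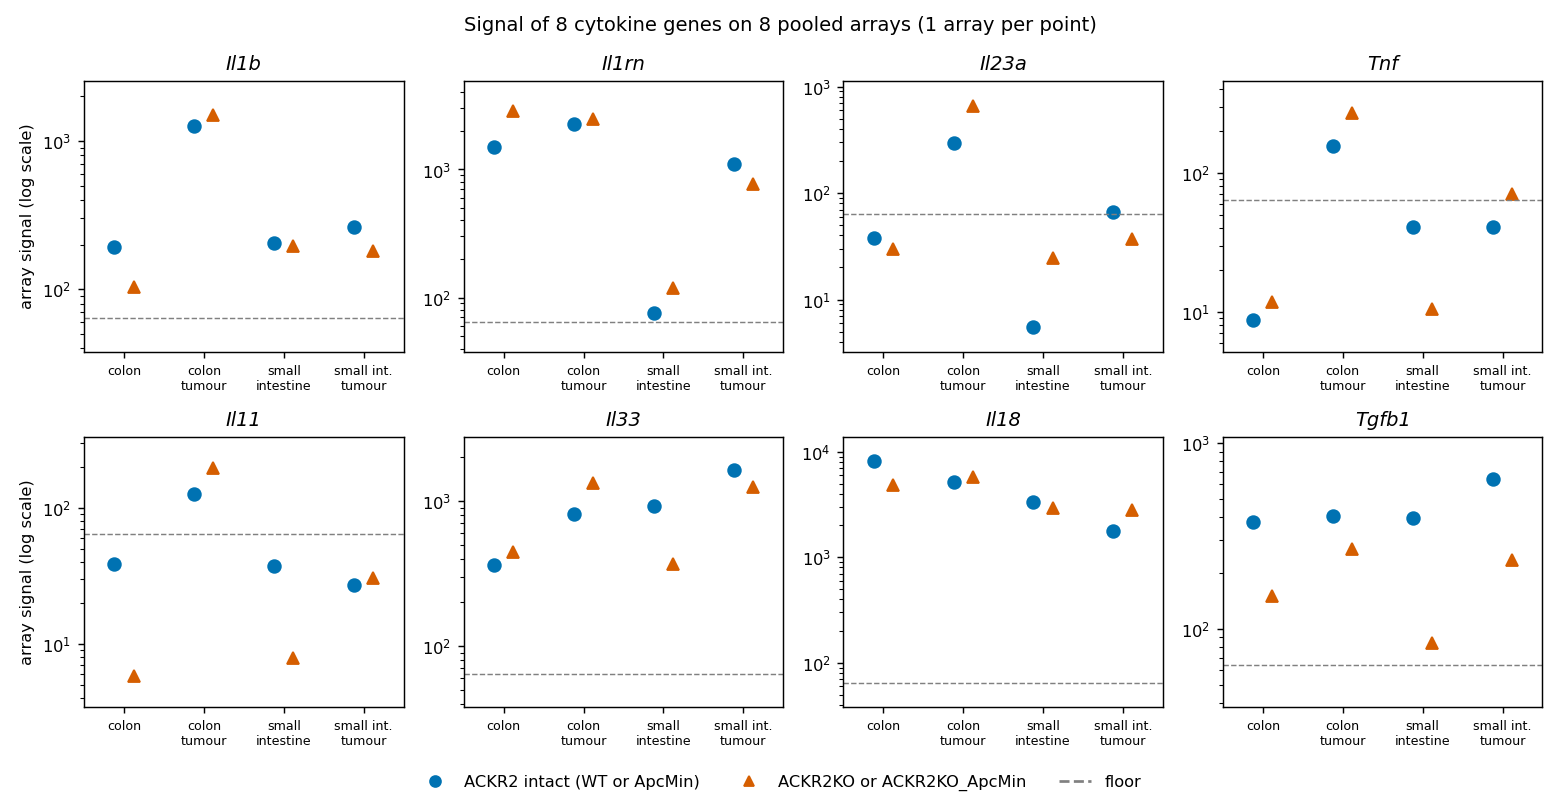
Array signal (log scale, a different range in each panel) of the 8 cytokine genes on the 8 pooled arrays, 1 point per array, at the probe set used for each gene; circles are arrays with intact ACKR2 and triangles those with ACKR2 loss, and the dashed line is the floor of 64.1. Il1b, Il23a, Tnf and Il11 were highest in the 2 colon tumour arrays, whereas Il1rn was lowest in the 2 arrays of non-tumour small intestine.

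The first question was how each cytokine gene differed between tumour and non-tumour tissue. Il1b, Il23a, Tnf and Il11 rose in colon tumours, and none of these 4 passed the test in small-intestinal tumours. Il1rn did the converse, rising in small-intestinal tumours with no call in colon. Over all genes tested 23.6% were called in colon tumours, 11.1% as higher and 12.6% as lower, against 4 of 8 members called higher there. In small-intestinal tumours 3.9% of all genes were called, 2.72% as higher and 1.18% as lower, against 1 of 8 members. The median difference of the members was 1.34 in colon tumours and 0.09 in small-intestinal tumours, beside 0.00 and 0.04 for all genes. These counts and medians are a description and no support, since Il23a, Tnf and Il11 passed the filter chiefly through the colon tumours.

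Il1b, the interleukin 1 beta gene, had signals of 193 in WT colon and 103 in ACKR2KO colon, and of 1254 and 1493 in the ApcMin and ACKR2KO_ApcMin colon tumours. In small intestine it had 206 in WT and 195 in ACKR2KO tissue, and 262 and 181 in the tumours. Both colon tumour arrays lay far above the other 6, which all lay between 103 and 262, so the tumour and non-tumour arrays did not overlap in colon and did in small intestine. Il1b was 6.52-fold higher in ApcMin colon tumours than in WT colon and 14.5-fold higher in ACKR2KO_ApcMin colon tumours than in ACKR2KO colon. The log2 difference was 3.28 ± 0.33 (limma adjusted p = 0.00341), and between 2.87 and 3.69 with an array or a pair of arrays left out, at adjusted p of 0.0635 to 0.252. In small intestine the difference was 0.12 ± 0.33 (limma adjusted p = 0.895), with a 95% interval from -0.68 to 0.92.

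Il23a, the gene of the p19 subunit, was below the floor in all 4 non-tumour arrays, at 37.6 in WT colon, 29.8 in ACKR2KO colon, 5.48 in WT small intestine and 24.8 in ACKR2KO small intestine. It had 298 in ApcMin and 662 in ACKR2KO_ApcMin colon tumours, and 66.1 and 36.6 in the small-intestinal tumours. The 2 colon tumour arrays were again apart from the rest, and of the other 6 only the ApcMin small-intestinal tumour array reached the floor. Il23a was at least 4.64-fold higher in ApcMin colon tumours and at least 10.3-fold higher in ACKR2KO_ApcMin colon tumours than in the non-tumour colon with the same ACKR2 genotype. The log2 difference was 2.79 ± 0.31 (limma adjusted p = 0.00430), and 0.02 ± 0.31 in small intestine (adjusted p of 1). That small value was set by the floor: without one the small-intestinal difference was 2.08 (adjusted p = 0.202), from signals too low to be ordered.

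Tnf, the TNF gene, had signals of 8.76 and 11.7 in WT and ACKR2KO colon, against 156 and 269.9 in the ApcMin and ACKR2KO_ApcMin colon tumours. In small intestine it had 40.8 and 10.5 in WT and ACKR2KO tissue, and 40.9 and 71.0 in the ApcMin and ACKR2KO_ApcMin tumours. Of the 8 arrays, 3 exceeded the floor, all of them of tumours, and the small-intestinal one among them did so narrowly. Tnf was at least 2.43-fold higher in ApcMin colon tumours and at least 4.21-fold higher in ACKR2KO_ApcMin colon tumours, a log2 difference of 1.68 ± 0.22 (limma adjusted p = 0.00630). The difference in small intestine was 0.07 ± 0.22 (adjusted p = 0.904), and 1.38 without a floor (adjusted p = 0.358).

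Il11, the gene of the gp130 cytokine IL11, exceeded the floor in the 2 colon tumour arrays only, at 128 in ApcMin and 198 in ACKR2KO_ApcMin. Its signals were 38.7 and 5.79 in WT and ACKR2KO colon, 37.6 and 7.85 in WT and ACKR2KO small intestine, and 27.0 and 30.8 in the small-intestinal tumours. Colon tumours and the other arrays did not overlap, and below the floor the order of the other 6 has no meaning. Il11 was at least 1.99-fold and at least 3.09-fold higher in the ApcMin and ACKR2KO_ApcMin colon tumours, a log2 difference of 1.31 ± 0.22 (limma adjusted p = 0.0111). That standard error was partly set by the floor: for the ACKR2 effect of Il11 in tumours it was 0.22 with the floor and 0.69 without one. In small intestine all 4 arrays were at the floor, so no difference was detectable there.

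Il1rn, the receptor antagonist gene, was high in every colon array: 1508 in WT, 2881 in ACKR2KO, 2257 in ApcMin tumours and 2466 in ACKR2KO_ApcMin tumours, at the probe set with the highest mean. In small intestine it had 75.6 in WT and 119 in ACKR2KO tissue, and 1105 and 776 in the ApcMin and ACKR2KO_ApcMin tumours. Non-tumour small intestine was therefore near the floor and the small-intestinal tumours lay between it and the colon arrays, while tumour and non-tumour arrays overlapped in colon. Il1rn was 14.6-fold higher in ApcMin small-intestinal tumours than in WT tissue and 6.50-fold higher in ACKR2KO_ApcMin tumours than in ACKR2KO tissue, a log2 difference of 3.29 ± 0.22 (limma adjusted p = 0.00365). In colon the difference was 0.18 ± 0.22 (adjusted p = 0.604). With an array or a pair of arrays left out, the small-intestinal difference was 2.86 to 3.94 at adjusted p of 0.161 to 0.525.

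The other Il1rn probe sets gave the same order of tissues. One had 67.6 and 27.3 in non-tumour small intestine and 598 and 358 in the tumours, and the other had 129 and 104 against 404 and 362. Tested on their own, they rose in small-intestinal tumours by 2.81 ± 0.33 (limma adjusted p = 0.0128) and 1.72 ± 0.31 (adjusted p = 0.0438), so the size of the difference varied between probe sets and its direction did not.

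Il33, the gene of an alarmin of epithelial and stromal cells, was higher in the tumour array of all 4 pairs, but no comparison of it passed the test. It had 365 in WT colon and 442 in ACKR2KO colon, against 807 and 1337 in the ApcMin and ACKR2KO_ApcMin colon tumours. In small intestine it had 929 in WT and 371 in ACKR2KO tissue, against 1636 and 1251 in the tumours. Tumour and non-tumour arrays did not overlap within either tissue, and the 2 non-tumour arrays of small intestine lay further apart from each other than those of colon. The log2 difference was 1.37 ± 0.43 in colon (limma adjusted p = 0.0670) and 1.29 ± 0.43 in small intestine (adjusted p = 0.173). In a filter that kept only genes above the floor in all 8 arrays, the colon difference was called (adjusted p = 0.0351).

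Il18, whose product is made as an inactive precursor in the epithelium, had its highest signal in WT colon. Its signals were 8190.5 in WT and 4818 in ACKR2KO colon, and 5131 and 5754 in the ApcMin and ACKR2KO_ApcMin colon tumours. In small intestine they were 3372 in WT and 2901 in ACKR2KO tissue, and 1784 and 2804 in the tumours. Tumour arrays overlapped the non-tumour arrays in colon and lay below both in small intestine. The log2 difference was -0.21 ± 0.20 in colon (limma adjusted p = 0.498) and -0.48 ± 0.20 in small intestine (adjusted p = 0.248).

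Tgfb1, the TGF-beta 1 gene, had 375 in WT and 150.4 in ACKR2KO colon, and 405 and 268 in the ApcMin and ACKR2KO_ApcMin colon tumours, at the probe set with the higher mean. In small intestine it had 394 in WT and 84.2 in ACKR2KO tissue, and 639 and 235.5 in the tumours. Tumours exceeded the non-tumour array of the same ACKR2 genotype in all 4 pairs, but tumour and non-tumour arrays overlapped in both tissues. The log2 difference was 0.47 ± 0.35 in colon (limma adjusted p = 0.375) and 1.09 ± 0.35 in small intestine (adjusted p = 0.159). The second Tgfb1 probe set stayed near the floor, between 42.2 and 109.5 on all arrays, and gave -0.05 ± 0.18 and 0.50 ± 0.18.

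**Figure D2:**
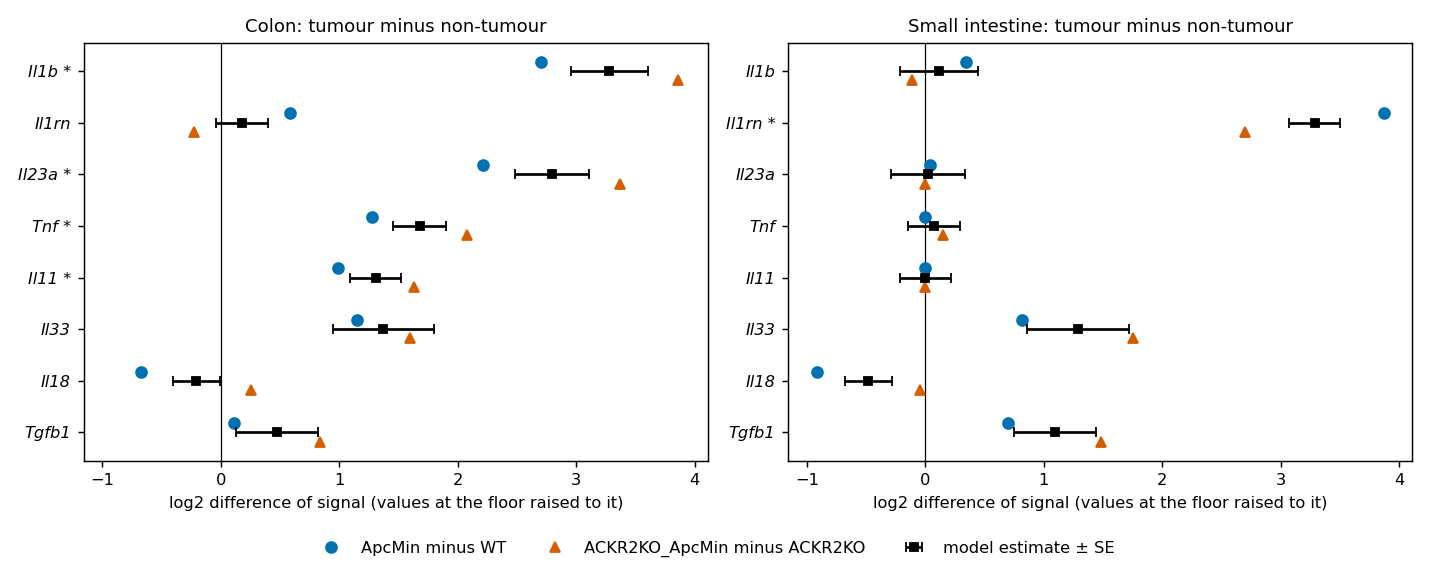
Log2 difference of signal between tumours and non-tumour tissue for the 8 genes in colon and in small intestine, with the ACKR2-intact pair as circles, the ACKR2-deficient pair as triangles and the model estimate ± SE as squares; an asterisk marks a limma adjusted p under 0.05. Il1b, Il23a, Tnf and Il11 carry the asterisk in colon, and Il1rn carries it in small intestine.

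The difference between the tumour effects of colon and small intestine was then tested directly. It was called for 3 of 8 members, against 2.15% of all genes tested. Il1b rose more in colon tumours, by 3.16 ± 0.46 on the log2 scale (limma adjusted p = 0.0350), and so did Il23a, by 2.77 ± 0.44 (adjusted p = 0.0423). The direction was opposite for Il1rn, at -3.11 ± 0.31 (adjusted p = 0.0152). The 3 calls were not equally stable. That of Il23a was lost under 8 of 10 other settings applied to it, with adjusted p of 0.0531 to 0.495 in those, and without a floor its difference was 1.65. That of Il1rn was lost with the mean of its probe sets (-2.58, adjusted p = 0.0641), and its other probe sets alone gave -2.70 (adjusted p = 0.0580) and -1.95 (adjusted p = 0.0991). Tnf, at 1.60 ± 0.31 (adjusted p = 0.0692), and Il11, at 1.31 ± 0.30 (adjusted p = 0.0949), did not pass.

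Markers of immune cells also differed between the groups. Their counts stand beside 11.1% of all genes called higher and 12.6% called lower in colon tumours, and 2.72% and 1.18% in small-intestinal tumours. The summed signal of 12 neutrophil markers was 12652 to 14194 in colon tumours, 999 to 1963 in non-tumour colon, 662 to 805 in non-tumour small intestine and 1449 to 1767 in small-intestinal tumours. S100a8 and S100a9, the calprotectin subunits, carried most of the sum in colon tumours. Without these genes the other 10 markers summed to 621 to 1051 in non-tumour colon and 1579 to 1818 in colon tumours, and to 621 to 729 and 1254 to 1394 in small intestine. Of 9 tested neutrophil genes, 5 rose in colon tumours, among them S100a8 by 4.34 ± 0.42 (limma adjusted p = 0.00326) and S100a9 by 4.36 ± 0.27 (adjusted p = 0.00114), whereas the granule genes Mpo and Camp and the receptor gene Cxcr2 did not pass the filter. The granule genes Elane, at -0.39 ± 0.18 (adjusted p = 0.185), and Ltf, at -0.92 ± 0.46 (adjusted p = 0.196), had negative differences that did not pass the test. The sum of 15 macrophage and monocyte markers was 22756 to 26977 in colon tumours and 13534 to 15989 in non-tumour colon. Of 14 tested genes, 3 were higher (21.4%) and 2 lower (14.3%, near the share of all genes) in colon tumours. The sum was 16442 to 19109 in small-intestinal tumours and 16454 to 17072 in the non-tumour tissue. Lyz2, the lysozyme gene of myeloid cells, carried most of the difference in colon, with 4100 and 3920 in non-tumour tissue and 10414 and 13137 in tumours. Without it the sums were 9433 to 12069 in non-tumour colon and 12342 to 13840 in colon tumours. The 2 genes called lower there were the macrophage receptor genes Cd163 and Mertk, by 2.06 and 1.38 (adjusted p = 0.0148 and 0.0473). The median difference of the 14 genes was 0.30 in colon tumours, beside 0.00 for all genes. The sum of 11 mast cell markers was 14802 to 28087 in small-intestinal tumours and 1060 to 1113 in non-tumour small intestine, with 8 of 11 genes higher, and 6 of 8 B cell genes were higher there. The part of these cells in the signals of Il1b, Il23a, Tnf, Il11 and Il1rn was not tested.

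Colon was next compared with small intestine, in non-tumour tissue and in tumours. These comparisons share arrays with the tumour comparisons and are no independent evidence. In non-tumour tissue 2 of 8 members were called, both higher in colon, where 21.3% of all genes were called. Il1rn exceeded small intestine by 19.96-fold in WT and 24.1-fold in ACKR2KO mice, a log2 difference of 4.46 ± 0.22 (limma adjusted p = 0.000181). Il18 was 2.43-fold and 1.66-fold higher in colon, a difference of 1.01 ± 0.20 (adjusted p = 0.0189). Il1b, at -0.51 ± 0.33 (adjusted p = 0.320), Il33, at -0.55 ± 0.43 (adjusted p = 0.412), and Tgfb1, at 0.38 ± 0.35 (adjusted p = 0.480), did not pass. Il23a, Tnf and Il11 lay below the floor in all 4 non-tumour arrays and could not be compared.

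In tumours 6 of 8 members were called, all higher in colon, where 13.1% of all genes were called and 5.75% as higher. Il1b was 4.80-fold higher in ApcMin and 8.25-fold higher in ACKR2KO_ApcMin colon tumours than in the small-intestinal tumours of the same genotype, a difference of 2.65 ± 0.33 (limma adjusted p = 0.00616). Il23a differed by 2.77 ± 0.31 (adjusted p = 0.00450), Tnf by 1.60 ± 0.22 (adjusted p = 0.00847) and Il11 by 1.31 ± 0.22 (adjusted p = 0.0142), each as a lower limit. Il18 differed by 1.28 ± 0.20 (adjusted p = 0.0120), close to its difference in non-tumour tissue. For Il1rn the difference had narrowed to 1.35 ± 0.22 (adjusted p = 0.0135), with 2.04-fold in ApcMin and 3.18-fold in ACKR2KO_ApcMin tumours. Il33, at -0.46 ± 0.43 (adjusted p = 0.515), and Tgfb1, at -0.24 ± 0.35 (adjusted p = 0.698), did not pass. The count of 6 was 4 without a floor and 3 with only genes above the floor in all 8 arrays. It includes Il23a, Tnf and Il11, which passed the filter chiefly through the colon tumours, and is no support.

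**Figure D3:**
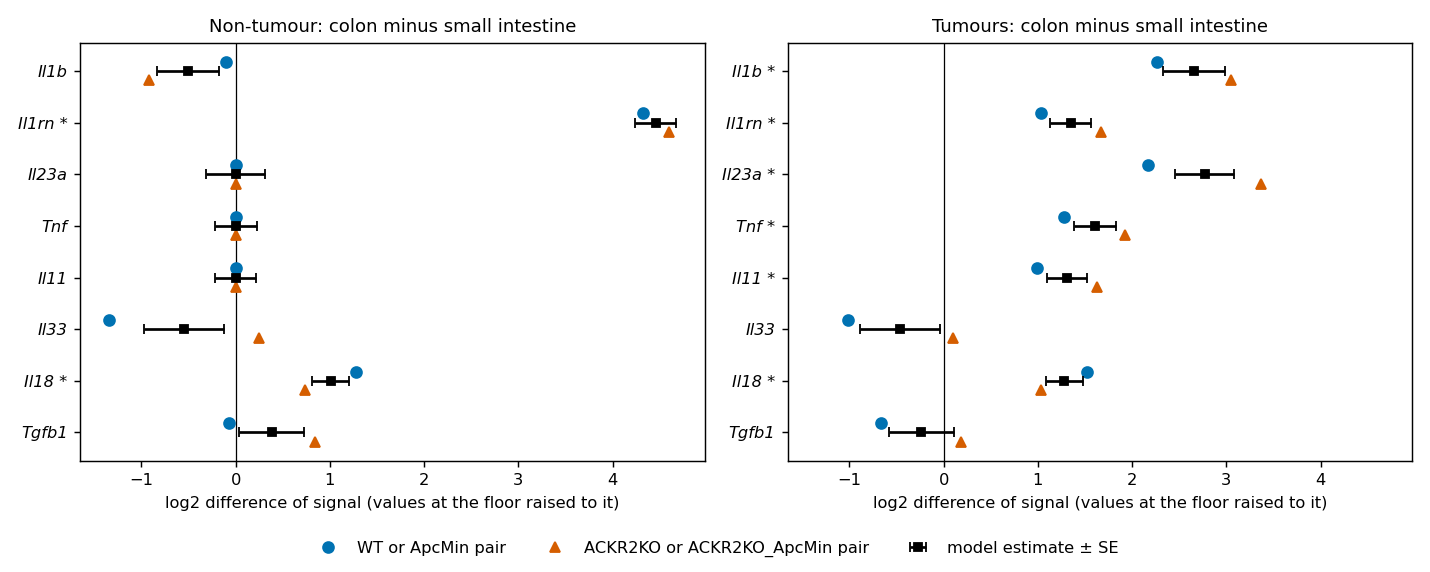
Log2 difference of signal between colon and small intestine for the 8 genes in non-tumour tissue and in tumours, with the ACKR2-intact pair as circles, the ACKR2-deficient pair as triangles and the model estimate ± SE as squares; an asterisk marks a limma adjusted p under 0.05. Il1rn and Il18 are higher in colon in both panels, and Il1b, Il23a, Tnf and Il11 in tumours.

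The last question was whether loss of ACKR2 moved the cytokine genes. No member was called by limma in tumours (0 of 8, beside 0.0285% of all genes) or in non-tumour tissue (0 of 8, beside 0.57%), while 1 member in tumours and 3 in non-tumour tissue had an unadjusted p under 0.05, beside 15.6% and 24.7% of all genes. In ACKR2KO_ApcMin colon tumours Il23a was 2.23-fold, Tnf 1.73-fold and Il11 1.55-fold higher than in ApcMin colon tumours, and Il1b was 1.19-fold higher, each from 1 pair of arrays with no test. Averaged over colon and small intestine, the differences in tumours were 0.56 ± 0.31 for Il23a (limma adjusted p = 0.432), 0.47 ± 0.22 for Tnf (adjusted p = 0.374) and 0.32 ± 0.22 for Il11 (adjusted p = 0.509). The 95% interval of the Il23a difference ran from -0.20 to 1.32, so neither a rise of that size nor its absence was shown. For Il1b the difference was -0.14 ± 0.33 in tumours (adjusted p = 0.880) and -0.49 ± 0.33 in non-tumour tissue (adjusted p = 0.410).

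Tgfb1 had the lowest adjusted p among the members for ACKR2 loss in non-tumour tissue. At the probe set with the higher mean, the array with ACKR2 loss was lower in 4 of 4 pairs. Tgfb1 was 2.49-fold lower in ACKR2KO than in WT colon and 4.68-fold lower in small intestine, a log2 difference of -1.77 ± 0.35 (limma adjusted p = 0.0630). In tumours it was 1.51-fold lower in colon and 2.71-fold lower in small intestine, a difference of -1.02 ± 0.35 (adjusted p = 0.263). The second probe set, near the floor, gave -0.13 ± 0.18 (adjusted p = 0.686) and 0.05 ± 0.18 (adjusted p = 0.941), so the probe sets disagreed. The non-tumour difference was called under 3 other settings, at adjusted p of 0.0253 to 0.0442, and was -1.22 (adjusted p = 0.0501) with arrays centred on their medians. Median signal and the Actb 3'/5' ratio, though not the Gapdh 3'/5' ratio, separated the same arrays. Stromal markers moved with ACKR2 loss too. The fibroblast list had a median of -0.74 in non-tumour tissue and -1.11 in tumours, and the endothelial list -0.62 and -0.96. All genes had -0.02 and -0.03. Smooth muscle markers had -0.20 and -2.09, and epithelial markers -0.04 and 0.02. Most genes of these lists were not called. The part of these measures and cell types in the Tgfb1 signal was not tested.

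Il1rn was higher with ACKR2 loss in non-tumour tissue, by 1.91-fold in colon and 1.58-fold in small intestine, but was not called (0.80 ± 0.22, limma adjusted p = 0.0995). The other Il1rn probe sets, tested on their own, gave 0.47 ± 0.33 (adjusted p = 0.405) and 0.21 ± 0.31 (adjusted p = 0.708), and in small intestine both were lower with ACKR2 loss, at -0.08 and -0.32, so the direction there was not shared by all 3. At the probe set with the highest mean, after each array was centred on its median, where the median over all genes was 0.43 in place of -0.02, it was called at 1.35 (adjusted p = 0.0119). Il18 had -0.49 ± 0.20 in non-tumour tissue (adjusted p = 0.197) and 0.41 ± 0.20 in tumours (adjusted p = 0.382). Il33 moved in opposite directions in the non-tumour pairs, 1.21-fold higher in colon and 2.51-fold lower in small intestine (-0.52 ± 0.43, adjusted p = 0.499). After centring, the non-tumour differences of Il1b, Il18 and Il33 turned from negative to 0.06, 0.06 and 0.02.

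**Figure D4:**
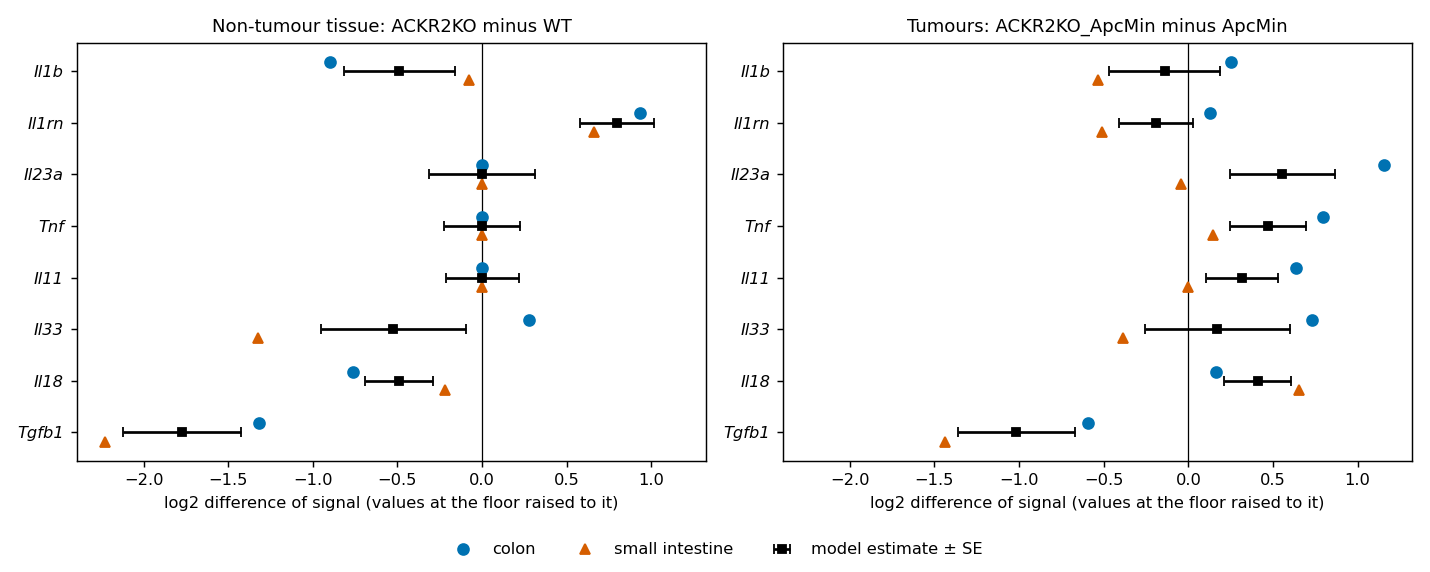
Log2 difference of signal with loss of ACKR2 for the 8 genes, ACKR2KO minus WT in non-tumour tissue and ACKR2KO_ApcMin minus ApcMin in tumours, with the colon pair as circles, the small-intestinal pair as triangles and the model estimate ± SE as squares. No gene passed the test, and Tgfb1 lies below 0 in all 4 pairs.

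The members followed different patterns over the 8 arrays. Il23a, Tnf and Il11 correlated with each other at Pearson r of 0.997 to 0.999 over 8 arrays, and with Il1b at 0.937 to 0.948. These coefficients rest on the 2 colon tumour arrays, since nearly all other values of Il23a, Tnf and Il11 were at the floor, and the arrays share scaling and pools. Il1rn correlated with these 4 genes at 0.35 to 0.46, and Il33 and Il18 at -0.49 with each other. Among 8840 genes that spanned at least 1 on the log2 scale, the pattern of Il1b was most like those of Cpn1 (r = 0.99), the macrophage metalloelastase gene Mmp12 (0.97) and Wnt10a, which encodes a Wnt ligand (0.97). Mmp12, for example, had signals of 772 and 909 in colon tumours and at most 115 elsewhere.

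For Il1rn the nearest genes were Anxa1 (r = 0.99), which encodes the anti-inflammatory protein annexin A1, Anxa8 (0.98) and Ablim1 (0.97). Anxa1 had 983 and 963 in non-tumour small intestine, 7228 and 4810 in the tumours there, and 10448 to 19787 in colon. The genes nearest to Il23a, Tnf and Il11 were each other, Tpbg, Tgm1 and Wnk3. Il33 was nearest to Rec8, Fam71e1 and Msi1 (0.95 each), Il18 to Cldn14, Vegfc and Kank1 (0.94 to 0.95), and Tgfb1 to Snapc4, Snrnp70 and Ppan (0.98 each).

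Counts on the pathway lists below stand beside 11.1% of all genes called higher and 12.6% called lower in colon tumours, and 2.72% and 1.18% in small-intestinal tumours, and were not tested against these shares. Among receptors and relatives of IL1, 3 of 13 tested genes rose in colon tumours and 0 fell, with a list median of 0.43 beside 0.00 for all genes. Il1r2, which encodes the decoy receptor of IL1, rose by 2.54 ± 0.27 (limma adjusted p = 0.00386), from 62.2 and 41.4 in WT and ACKR2KO colon to 383 and 362 in the tumours. Il1f5 and Il1f6, older names for genes of the IL36 branch, rose by 0.81 ± 0.18 (adjusted p = 0.0273) and 0.76 ± 0.21 (adjusted p = 0.0440). In WT and ACKR2KO colon Il1f5 had 47.2 and 43.6 and Il1f6 64.9 and 53.5, so these sizes were largely set by the floor. In small intestine Il1f5 had 38.8 and 45.3 against 94.7 and 86.5 in tumours, and Il1f6 53.7 and 77.8 against 94.2 and 143, without a call. Il1r1, the signalling receptor gene, was higher in colon than in small intestine, by 1.69 in non-tumour tissue and 2.01 in tumours, while Il18bp, which encodes the inhibitor that binds IL18, was lower in non-tumour colon (-2.74). Of 15 genes of the inflammasome and of IL1 signalling, 0 were called in colon tumours by limma (4 at an unadjusted p under 0.05) and 1 in small-intestinal tumours, where Casp4, a caspase of the non-canonical inflammasome, fell by 1.20 ± 0.22 (adjusted p = 0.0449). Il1a, the second IL1 agonist gene, did not pass the filter, with 79.5 in ApcMin colon tumours and at most 28.6 elsewhere.

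In the IL23 and IL17 pathway 1 of 12 tested genes rose and 5 fell in colon tumours. Il17a, the main product of IL17-producing lymphocytes, rose by 1.06 ± 0.24 (limma adjusted p = 0.0278), to signals of 106 and 169 in the ApcMin and ACKR2KO_ApcMin tumours. It was below the floor in WT and ACKR2KO colon, at 39.5 and 20.9, so the size of this rise was set by the floor. In small intestine Il17a had 64.1 and 70.8 in WT and ACKR2KO tissue, and 102 and 93.4 in the ApcMin and ACKR2KO_ApcMin tumours. The genes that fell were receptors and a transcription factor: Il22ra2, the soluble IL22 decoy, by 1.91 ± 0.31 (adjusted p = 0.0107), Il17rc by 1.45, Il22ra1 by 1.21, Il17re by 0.97 and Rora by 1.32. Ccr6, a chemokine receptor of IL17-producing lymphocytes and B cells, rose in small-intestinal tumours by 2.82 ± 0.25 (adjusted p = 0.00635), where B cell markers rose too. Il12b, whose product pairs with p19 to form IL23, did not pass the filter, with signals of at most 43.3, and neither did Il6 or Il12a. Il23r, Il17f and Il22 were not analysed here.

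Of 14 genes of the TNF pathway, 4 rose (28.6%, beside 11.1% of all genes) and 1 fell (7.14%, beside 12.6%) in colon tumours. Ripk3, a kinase of necroptosis, rose by 2.61 ± 0.20 (limma adjusted p = 0.00196), and Tnfrsf1b, the second TNF receptor gene, rose by 1.32 ± 0.21 (adjusted p = 0.0103). Casp8 rose by 0.70 and Adam17, the protease that sheds TNF, by 0.65, whereas Tradd, an adaptor of the first TNF receptor, fell by 1.25. In small-intestinal tumours the lymphotoxin gene Ltb rose by 2.52 ± 0.26 (adjusted p = 0.00850) and Traf1 by 1.22. Of 24 genes that respond to NF-kB, 10 rose (41.7%) and 3 fell (12.5%) in colon tumours, with a list median of 0.73 beside 0.00 for all genes. The neutrophil chemokine gene Cxcl2 rose by 4.84 ± 0.29 (adjusted p = 0.00114), from 35.8 and 12.1 to 1853 and 1809, the iron-binding Lcn2 by 4.78 ± 0.44 (adjusted p = 0.00292), Cxcl5 by 3.55 and the adhesion gene Icam1 by 2.55. The inhibitor gene Tnip1 fell by 1.43, and 1 of the 24 genes, Lcn2, was called in small-intestinal tumours, rising by 3.65 ± 0.44 (adjusted p = 0.0140). At an unadjusted limma p under 0.05, 10 of the 24 genes differed in small-intestinal tumours, beside 20.1% of all genes. In colon tumours 16 of the 24 did, beside 37.4% of all genes.

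In the IL11, IL6 family and STAT3 list 5 of 17 genes rose and 3 fell in colon tumours, against 0 in either direction in small-intestinal tumours by limma (3 at an unadjusted p under 0.05). Reg3b and Reg3g, which encode antimicrobial lectins, rose by 8.31 ± 0.22 and 7.76 ± 0.22 (limma adjusted p = 0.000137 for each). Reg3b had 53.5 and 39.4 in WT and ACKR2KO colon and 23388 and 17624 in the tumours, beside 27283 to 38215 in all 4 small-intestinal arrays. Socs3, a feedback inhibitor of STAT3, rose by 2.55 ± 0.21 (adjusted p = 0.00213) and the oncostatin M receptor gene Osmr by 1.21 ± 0.29 (adjusted p = 0.0315). Il6st, which encodes the shared receptor gp130, fell by 0.96 and Il6ra by 1.02, and Lifr fell as well. Socs3 fell with loss of ACKR2 in non-tumour tissue by 2.04 ± 0.21 (adjusted p = 0.0407), as did the NF-kB gene Bcl3 by 1.89 ± 0.24 (adjusted p = 0.0455). These calls were not stable: that of Socs3 was lost under 4 of 10 other settings (adjusted p of 0.0502 to 0.161) and that of Bcl3 under 5 (0.0535 to 0.169), and with eBayes without trend 0 genes on the whole array were called lower by limma. The 10 settings do not include the additive model, whose shared ACKR2 effect had limma adjusted p of 0.0562 for Socs3 and 0.0378 for Bcl3. Nor do they include the fits with arrays left out, in which neither call held. The arrays with ACKR2 loss also had the lower median signal and the higher Actb 3'/5' ratio, while the Gapdh 3'/5' ratio overlapped. The part of these measures was not tested.

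In the TGF-beta pathway 6 of 26 genes rose (23.1%, beside 11.1% of all genes) and 3 fell (a share near the 12.6% of all genes) in colon tumours, and 3 rose and 1 fell in small-intestinal tumours. Pmepa1, a target and feedback inhibitor, rose by 2.25 ± 0.24 in colon (limma adjusted p = 0.00392) and 1.67 ± 0.24 in small intestine (adjusted p = 0.0230). Thbs1, whose product can activate latent TGF-beta, rose by 1.72 ± 0.21 and 1.96 ± 0.21 (adjusted p = 0.00535 and 0.00957). The co-receptor gene Tgfbr3 fell by 2.44 ± 0.18 and 1.17 ± 0.18 (adjusted p = 0.00164 and 0.0258), and Tgfb3 fell by 1.80 in colon. Furin, which encodes a protease that processes the TGF-beta precursor, fell with loss of ACKR2 in non-tumour tissue by 1.42 ± 0.19 (adjusted p = 0.0487). That call was lost under 6 of the same 10 other settings (adjusted p of 0.0508 to 0.161), and in every fit with arrays left out.

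**Figure D5:**
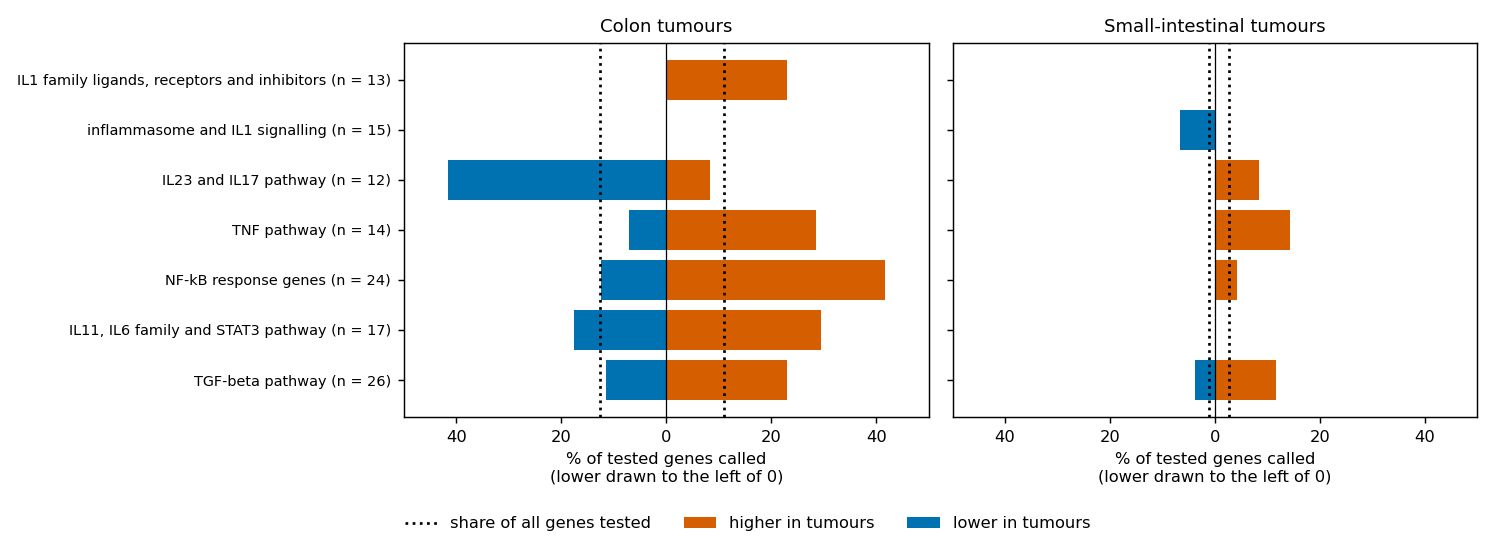
Percent of the tested genes of each of 7 pathway lists that limma called higher (right of 0) or lower (left of 0) in colon tumours and in small-intestinal tumours; n is the number of genes tested, and the dotted lines are the shares over all genes. In colon tumours 10 of 24 genes that respond to NF-kB were called higher (41.7%, beside 11.1% of all genes). In small-intestinal tumours at most 3 genes of any list were, which was 0% to 14.3% of a list, beside 2.72% of all genes.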

How the data were processed

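Gene expression was measured on 8 Affymetrix arrays, 1 per group of pooled RNA. Per the submitters' processing notes the authors used MAS5 and Partek, with versions not given. The deposited values were linear intensities, and each array's mean after trimming 2% at each end was 500.003. Of 45101 probe sets, 64 controls were left out, 34945 had 1 gene, 932 several and 9160 none. Values were raised to the floor of 64.134, the median of the arrays' 40th percentiles, then log2-transformed, and where a gene had several probe sets the one with the highest mean entered the tests.

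One limma model (limma 3.58.1, R 4.3.3; 6 coefficients, 2 residual and 4.12 prior degrees of freedom, eBayes with trend) gave all two-sided tests, and the procedure was tested on simulated data. The labels name no separate animals, so p-values measure only the spread between these arrays, which may be technical. The number of arrays limits the precision. The members and lists, 10 of cell type markers and 7 of pathways, were chosen with earlier results of these data known. List genes were named by a rule: up to 4 higher and 4 lower per list and comparison, by their smaller pair difference, of which the text gives those most relevant; Il17re, Il1a, Il6, Il12a, Il12b, Mpo, Camp, Cxcr2, Elane and Ltf were named after their values were seen. Other settings were the floor, the filter, quantile normalization, median centring, all probe sets, an additive model, no trend and each array left out.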

Additional observations from a re-analysis of the deposited data

Results flagged for a closer look

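The tumour effect differed between colon and small intestine, by the test of the difference itself, for 14 genes of the members, the pathway lists and the neutrophil and macrophage lists. The values are log2 differences of colon minus small intestine. Among the cytokine genes these were Il1b (3.16), Il23a (2.77) and Il1rn (-3.11). Among pathway genes the difference was 3.66 for Cxcl2, 2.25 for Ripk3, 2.81 for Socs3, 8.55 for Reg3b and 8.16 for Reg3g, all larger in colon. It was -3.49 for Il22ra2 and -3.25 for Ccr6. Of the neutrophil and macrophage markers, S100a9 (3.98), Mmp9 (2.79), Mmp8 (1.47) and Lyz2 (1.40) rose more in colon tumours. In marker lists not counted here, 6 of 8 B cell genes and 3 of 11 mast cell genes were called too, all with negative differences. Each of the 14 genes was listed because its limma adjusted p for this difference was under 0.05, as it was for 2.15% of all genes tested. That all of them passed is therefore no support.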

How the results depend on the processing

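No paired analysis was possible because each group had 1 array and the labels give no replicate numbers to use as a block, beyond the model's own pairing of colon with small intestine of the same genotype. Of the 56 differences on members, 7 had both sides at the floor, and the other 49 were recomputed under 18 to 21 alternatives each, 2 of them (leaving out both WT or both ACKR2KO_ApcMin arrays) chosen after seeing the data. The members called in colon tumours were 4, but 2 with a floor at the 60th percentile or with only genes above the floor in all 8 arrays, and 0 with no filter. With no filter 0 were also called in small-intestinal tumours, for the difference of tumour effects and between tumours of both tissues. The difference of tumour effects gave 1 call with the 60th percentile floor and 0 with the mean of all probe sets. Between tumours 3 were called with genes above the floor in all 8 arrays, and in non-tumour tissue 1 with no filter or an additive model. For ACKR2 loss 1 member was called in non-tumour tissue without a floor, with genes above the floor in all 8 arrays, with centred arrays and with each probe set tested alone. The additive model has 1 ACKR2 effect shared by tumour and non-tumour arrays, for which 1 member, Tgfb1, was called (-1.39, adjusted p = 0.0400). With any 1 array or either of those pairs left out, no call on a member held, with 1 residual degree of freedom. All 16 called differences kept their direction, which was largely fixed by pairs of the same sign and is no support.

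Signs turned only for differences that were not called, and are given first for those larger than their standard error. With centred arrays the ACKR2 effect in non-tumour tissue was 0.058 for Il18, 0.060 for Il1b and 0.024 for Il33, and it was 0.017 for Il1b after quantile normalization. The ACKR2 effect of Il18 in tumours was 0.41, against -0.041 for the shared effect of the additive model. Non-tumour colon against small intestine gave -0.036 for Tgfb1 with the 60th percentile floor and 0.25 for Il33 without both WT arrays. The tumour effect in colon was 0.38 for Il18 without both WT arrays and -0.12 for Tgfb1 without both ACKR2KO_ApcMin arrays. With single arrays left out, the ACKR2 effect ran from -1.32 to 0.28 for Il33 in non-tumour tissue and from -0.043 to 1.15 for Il23a in tumours. Colon against small intestine ran from -1.35 to 0.25 (Il33) and -0.071 to 0.84 (Tgfb1) in non-tumour tissue, and from -1.02 to 0.10 (Il33) in tumours, and the tumour effect of Il18 in colon from -0.48 to 0.065. Among smaller differences the ACKR2 effects of Il1rn, Il1b and Il33 in tumours also turned, to 0.096 (Il1rn) and 0.147 (Il1b) with centred arrays and to 0.303 (Il1rn) and -0.177 (Il33) in the additive model. The cause was not tested. Centring moved the median of all genes to 0.43 for ACKR2 loss in non-tumour tissue, from -0.02, and turned its calls from 18 higher and 62 lower into 3650 higher and 171 lower. Signals near the floor, as for Il11, Tnf and Il23a outside colon tumours, bear no difference.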

Other observations

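Pathway genes also differed between non-tumour colon and small intestine. Naip5, a sensor of bacterial flagellin, was lower in colon, with a log2 difference of -1.97 (limma adjusted p = 0.00107), and Tnfsf10, the TRAIL gene, was lower too (-2.88, adjusted p = 0.00965). Ripk3 was lower in non-tumour colon (-1.83, adjusted p = 0.0031), and so was Socs3 (-2.38, adjusted p = 0.0013), both among the genes that rose in colon tumours. Of the TGF-beta pathway genes, Ccn2, which encodes connective tissue growth factor, was higher in colon by 2.82 in non-tumour tissue and 3.53 in tumours, whereas Tgfbi was lower, at -2.11 and -1.33.

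The remaining marker lists gave these counts in tumours, beside 11.1% of all genes called higher and 12.6% lower in colon tumours and 2.72% and 1.18% in small-intestinal tumours, and for lists of this size a count of 1 in colon is near those shares. Of 10 epithelial genes, 1 rose and 1 fell in colon tumours and 1 rose in small-intestinal tumours, and their summed signals were 115845 to 170709 over all 8 arrays. Of 11 fibroblast genes, 5 fell in colon tumours and 2 in small-intestinal tumours. Of 7 dendritic cell genes, 1 rose in colon tumours and 2 in small-intestinal tumours. Of 10 T and NK cell genes, 0 were called by limma in colon tumours (2 at an unadjusted p under 0.05) and 1 rose in small-intestinal tumours, and of 9 endothelial genes 1 fell in colon tumours. Of 9 smooth muscle genes, 6 fell in small-intestinal tumours, and of 11 mast cell genes 3 rose in colon tumours.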
